A study of Mus musculus with 12 samples.

Results

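The miRNA time course under TGFβ comprised 3 libraries of mature miRNA counts, from colonies of AKR-2B cells sampled 2, 4 and 8 days after plating in soft agar with 25 ng/mL TGFβ. AKR-2B is a mouse fibroblast line, and soft agar is a semi-solid medium in which cells divide without attaching to a surface. The matched controls were 3 vehicle libraries of the same line, medium and days, and all 6 libraries held 1 pool of recovered colonies each, with no replicate. Of 1281 mature miRNAs in the table, 622 had a read in the TGFβ libraries and 372 reached a mean of at least 10 CPM there (CPM, reads scaled to library size). These 372 are described here, at day 4 and day 8 against day 2. The last included were miR-3068-5p and miR-328-5p at 10.1 CPM, and the first left out was miR-3572-3p at 9.85 CPM.

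A miRNA guides Argonaute proteins to mRNAs that pair with its seed, the bases near its 5′ end, and lowers their translation and stability. Mature miRNAs that share a seed can pair with the same sites, so they are treated as families even where they come from different chromosomes. TGFβ signals through Smad proteins and in fibroblasts is known for driving matrix production, contraction and, in AKR-2B cells, growth without attachment.

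The results turn on a few seed groups, whose mature RefSeq sequences are shown with the seed (bases 2 to 8) in capitals. RefSeq sequences of assembly GRCm38.p6, the assembly that mm10 names, were found for 286 of the 372 members, and the others are given by name. The first set, shown because its members were higher at day 8, holds both arms of miR-199a and 6 further miRNAs that differ in seed except for the miR-181 pair:
miR-199a-5p: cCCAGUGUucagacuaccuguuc
miR-199a-3p: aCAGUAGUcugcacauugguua
miR-181a-5p: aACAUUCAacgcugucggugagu
miR-181b-5p: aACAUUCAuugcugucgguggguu
miR-29a-3p: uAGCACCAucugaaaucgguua
miR-27b-3p: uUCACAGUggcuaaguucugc
miR-140-3p: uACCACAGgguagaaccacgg
miR-182-5p: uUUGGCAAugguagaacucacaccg
The 4 members with the miR-17 seed, from chromosomes 14 and 5, follow because all were higher at day 8:
miR-17-5p: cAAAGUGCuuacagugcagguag
miR-20a-5p: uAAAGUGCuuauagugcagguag
miR-93-5p: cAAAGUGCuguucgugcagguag
miR-106b-5p: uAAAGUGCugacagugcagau
The let-7 seed is shown by 5 of its 9 members, all of them lower at day 8, beside the opposite arm of let-7i, which has another seed and was higher:
let-7i-5p: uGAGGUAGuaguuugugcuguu
let-7b-5p: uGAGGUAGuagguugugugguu
let-7f-5p: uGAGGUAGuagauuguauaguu
let-7g-5p: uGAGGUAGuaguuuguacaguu
miR-98-5p: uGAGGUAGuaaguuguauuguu
let-7i-3p: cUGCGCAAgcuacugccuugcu
The last set holds miRNAs that were far lower after day 2, with the miR-200 pair from 1 locus on chromosome 4 first:
miR-200b-3p: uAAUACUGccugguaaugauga
miR-200a-3p: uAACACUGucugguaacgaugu
miR-6238: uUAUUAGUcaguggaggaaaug
miR-690: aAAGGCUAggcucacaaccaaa
miR-5128: cAAUUGGGgcuggcgagauggcu

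Depth was greater at each later day: the TGFβ libraries held 178877, 459795 and 1387785 reads at days 2, 4 and 8, so that 1 read was worth 5.90, 2.59 and 0.830 CPM. The vehicle libraries held 108716 to 414943 reads. Of the members, 10, 7 and 5 were without a read in the libraries of days 2, 4 and 8, where a count of 0 allows up to 17.7, 7.78 and 2.49 CPM. A day-to-day change is given as a ratio of scaled counts with an exact binomial 95% interval. It covers counting error only and leaves out variation between cultures, since each day has 1 library. PCR copies of 1 molecule were not marked and can be counted more than once, which can make the interval too narrow. A miRNA is called higher or lower where its log2 change (from CPM with a prior count of 2) was at least 1 and the interval left out a ratio of 1. With 1 library a day such a call has no replicate check, and fewer cells making a miRNA and less of it per cell cannot be told apart in bulk RNA. The fibroblast and mesenchyme markers miR-21a, miR-143, miR-199a, miR-214 and miR-125b were abundant in each library. miR-10b of the same list was at 289, 5.19 and 5.81 CPM at days 2, 4 and 8. Also on it are miR-145a-5p and miR-199b-5p, at means of 2293 and 575 CPM over the 3 TGFβ libraries, and miR-99a-5p, given below. The leukocyte list (miR-142a, miR-223 and miR-150) had 0 members and 0, 0 and 3 reads in the TGFβ libraries. In these libraries the red cell list had 130, 291 and 492 reads and the nerve list 85, 159 and 662. The striated muscle list had 39, 46 and 158 reads and the endothelium list 4, 3 and 13.

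The day 2 TGFβ library stood apart. In it, 6 miRNAs with at least 5 reads were at least 10 times higher there than in each other library, and no other library had such a miRNA. They were miR-10b-5p (49, 2 and 7 reads at days 2, 4 and 8), miR-200a-3p (26, 0 and 1), miR-200b-3p (77, 1 and 2), miR-204-5p (23, 0 and 0), miR-375-3p (8, 0 and 0) and miR-452-5p (27, 0 and 2), and made up 0.117% of its reads. The miR-200 family represses Zeb1 and Zeb2 and marks epithelium. Of the 14 miRNAs of the epithelium list 10 had a read and 5 are members. The whole list summed to 1039 CPM at day 2 and 15.6 and 21.6 CPM at days 4 and 8 under TGFβ. In vehicle it summed to 219, 51.7 and 15.4 CPM. With so few reads at days 4 and 8, the 5 members reached the mean of 10 CPM through the day 2 library. Their lower calls thus follow from how members were chosen. The liver miRNA miR-122-5p had 8, 0 and 2 reads. miR-148a-3p had 76, 7 and 40 reads, or 449, 18.2 and 33.2 CPM, beside 33.0 to 56.7 CPM in vehicle. The rule that picked out the 6 miRNAs was chosen after their values were seen, and the part of this library in the lower calls was not tested. Without these 6, the lower calls number 32 in place of 38 at day 4, and 71 in place of 77 at day 8. The 6 and miR-122-5p all reached the mean of 10 CPM through the day 2 library, like the epithelium members. The 32 and 71 still hold miR-122-5p, miR-200a-5p, miR-200c-3p and miR-203-3p. They are therefore not free of calls that follow from how members were chosen.

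**Figure D1:**
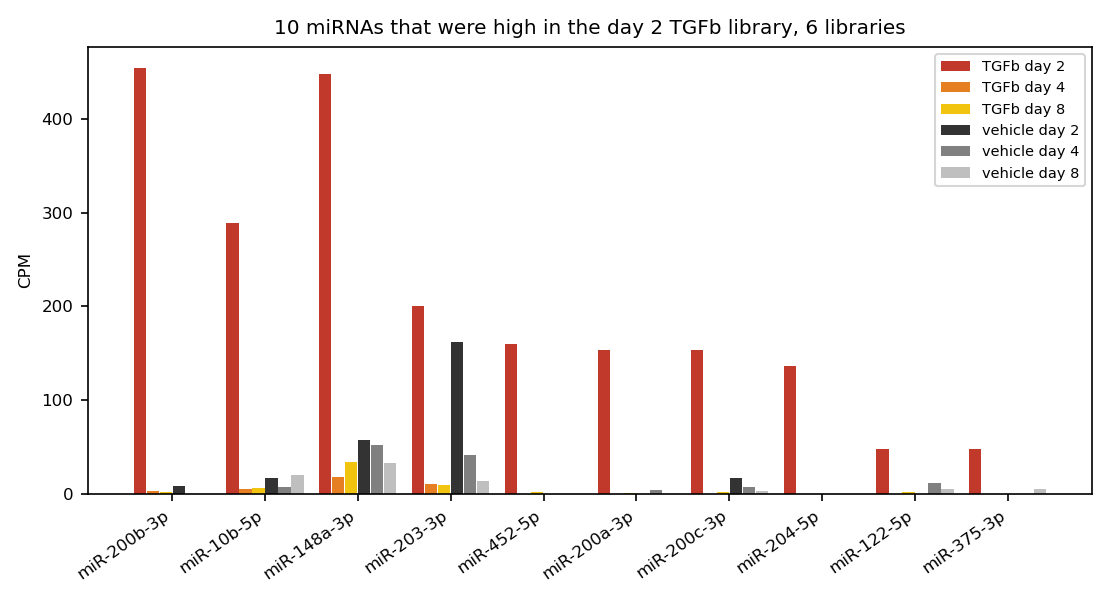
Level in CPM (bars, from 0) of 10 miRNAs in each of the 6 miRNA libraries, 1 library a bar. Each is highest in the day 2 TGFβ library, where miR-200b-3p reached 455 CPM, and miR-203-3p is the one that was also high in vehicle at day 2, at 162 CPM.

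At day 4 against day 2, 59 of the 372 miRNAs (15.9%) were called higher and 38 (10.2%) lower. At day 8 against day 2 the numbers were 93 (25%) higher and 77 (20.7%) lower. The median log2 change over all members was 0.21 at day 4 and 0.25 at day 8, so values near these are the level of the whole set. Both comparisons use the same day 2 library, so their values are set side by side and not counted as 2 observations. Another scaling moved the split at day 4: the share of higher calls was 60.8% with trimmed mean of M-values (TMM) factors, 48.0% with total counts and 47.4% with DESeq2 size factors. At day 8 it was 54.7% with TMM factors, and 75 higher against 82 lower calls (47.8%) were left with total counts, 81 against 80 (50.3%) with DESeq2 size factors and 74 against 82 (47.4%) with TMM factors over the 3 TGFβ libraries, so which direction had more calls depended on the scaling.

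**Figure D2:**
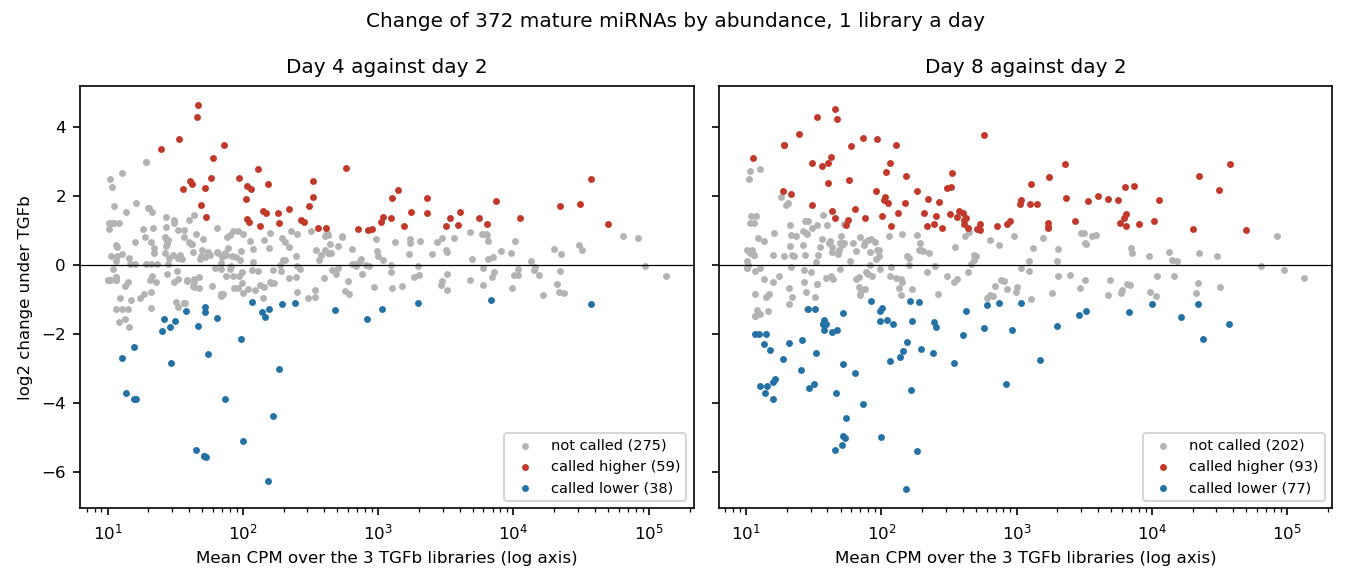
Log2 change of the 372 miRNAs under TGFβ (vertical axis) at day 4 and day 8 against day 2, by mean CPM over the 3 TGFβ libraries (log axis), each point 1 miRNA and each day 1 library. Red points are called higher (59 and 93) and blue points lower (38 and 77); the deepest drops belong to miRNAs of low mean CPM.

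The most abundant miRNA was not called at either day. miR-21a-5p, a growth- and fibrosis-associated miRNA whose maturation TGFβ is known to promote, was at 156589, 124410 and 119204 CPM at days 2, 4 and 8. Its day 8 level was thus 1.31-fold below day 2, on 26528 and 143585 reads. In vehicle it was at 50154, 28971 and 30127 CPM, below each TGFβ library. miR-99b-5p was at 98494, 95479 and 88505 CPM. miR-214-3p went from 55592 CPM to 95209 and 99618 CPM, a ratio of 1.79 (1.75 to 1.83) at day 8, which is below the 2-fold call. miR-125b-5p, which shares its seed with miR-125a-5p and miR-351-5p, was at 28552, 64049 and 57217 CPM, with ratios of 2.24 (2.18 to 2.31) and 2.00 (1.95 to 2.06). Among the leading 10, the calls at day 8 were miR-125b-5p, miR-181a-5p and miR-199a-5p, higher, and let-7i-5p, lower. The call of miR-125b-5p is marginal: its day 8 log2 change of 1.00 was 0.88 with total counts and 0.91 with DESeq2 size factors, and its day 4 value of 1.17 was 0.99 and 0.98, all below the call.

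Among the 10 most abundant members, miR-181a-5p and miR-199a-5p had the largest day 8 ratios. miR-181a-5p, a regulator of lymphocyte and myogenic differentiation, was at 8016, 44385 and 60352 CPM on 1358, 17117 and 72696 reads. Day 2 was low and days 4 and 8 were high, with ratios of 5.54 (5.24 to 5.86) and 7.53 (7.14 to 7.95). It is made from 2 hairpins, at chr1:137966455-137966541 (plus strand, in an exon of A430106G13Rik) and chr2:38852735-38852810 (plus strand, with no host gene on that strand). miR-181b-5p, from the same 2 loci, was at 3359, 6291 and 7804 CPM, with ratios of 1.87 (1.71 to 2.06) and 2.32 (2.13 to 2.53). miR-181d-5p, from chr8:84178716-84178787, was at 177, 197 and 235 CPM, and its interval at day 8 held 1 (0.909 to 2.00). Over the 5 members of the miR-181 list, 3 were higher and 0 lower at day 8, beside 25% and 20.7% of all members, with a median of 1.22. The list took 1.10%, 4.27% and 5.95% of the reads at days 2, 4 and 8 under TGFβ, and 1.04%, 1.40% and 2.04% in vehicle.

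miR-199a and miR-214 are cut from 1 long RNA, Dnm3os, a transcript of mesenchyme, at chr1:162217814-162217923 and chr1:162223368-162223477 (plus strand, exonic). miR-199a has a second hairpin at chr9:21496495-21496564. miR-199a-5p was at 10601, 35621 and 47300 CPM, with ratios of 3.36 (3.20 to 3.53) and 4.46 (4.26 to 4.68), while vehicle stayed between 9339 and 10092 CPM. miR-199a-3p was at 4640, 11866 and 17075 CPM, 3.68 times (3.43 to 3.96) its day 2 level at day 8. miR-199b-3p has the same mature sequence as miR-199a-3p, so reads of these arms cannot be told apart by sequence, and its row gave a ratio of 3.67 (3.31 to 4.06). miR-199b-5p started at 76.7 CPM on 13 reads and reached 558 and 1090 CPM, a ratio of 14.2 (8.28 to 26.8) at day 8. Of the 6 members of this list, 5 were higher at day 8 (4 of 5 with the shared 3p sequence counted once), beside 25% of all members. The median was 1.88. Together the 6 took 7.03%, 12.7% and 15.3% of the reads at the 3 days, and between 6.39% and 9.25% in vehicle.

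**Figure D3:**
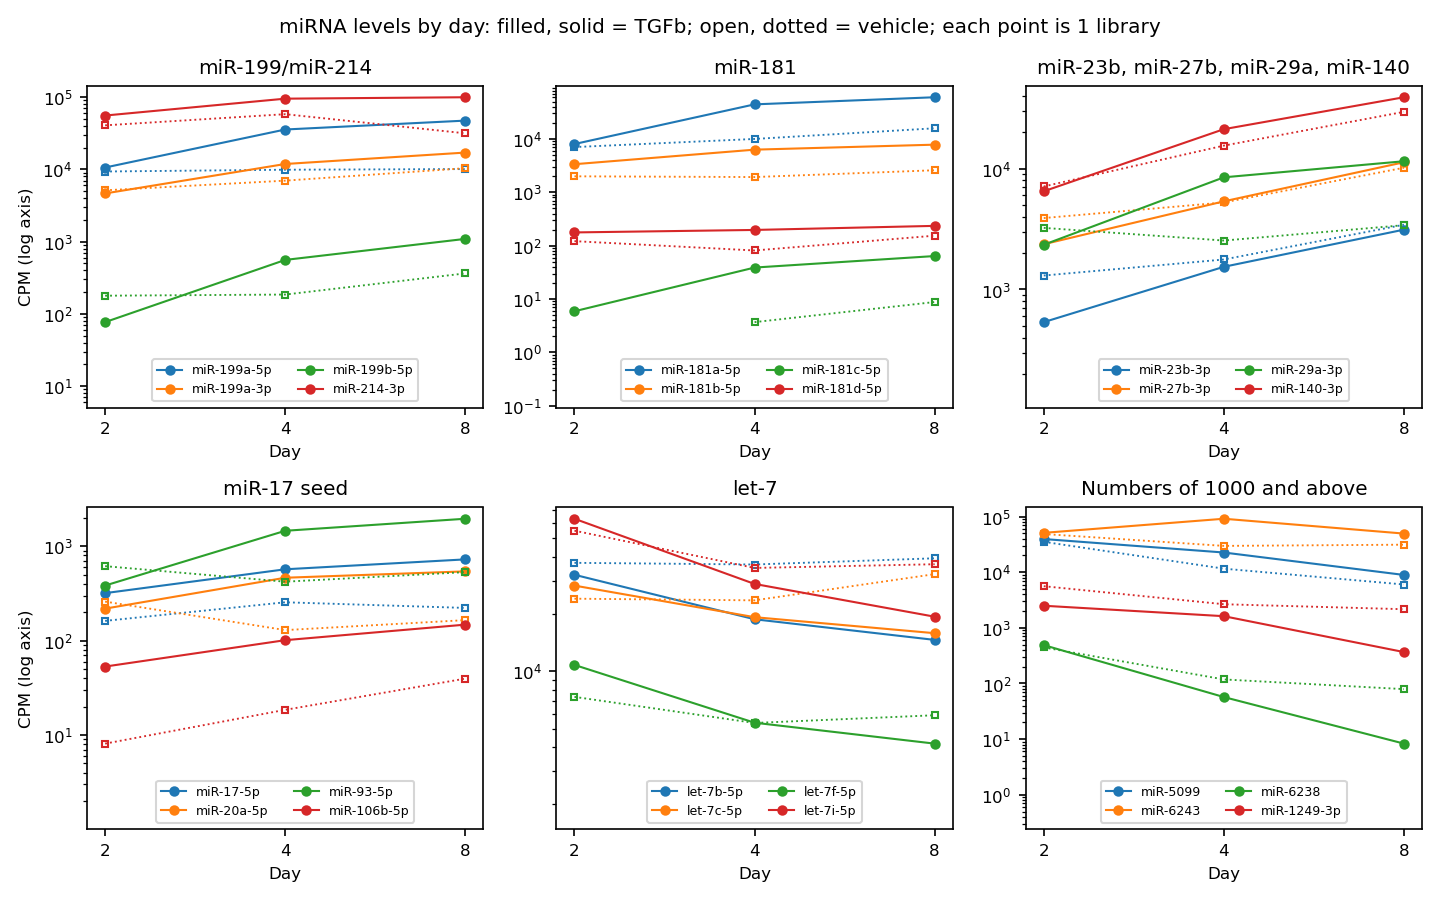
CPM (log axis) by day of 24 miRNAs in 6 family panels; filled points with solid lines are TGFβ and open squares with dotted lines vehicle, each point 1 library (a vehicle level of 0 for miR-181c-5p at day 2 is not drawn). Under TGFβ the miR-199, miR-181, miR-29a, miR-23b, miR-27b, miR-140 and miR-17 seed lines are higher at day 8 than at day 2, and the let-7 lines are lower.

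miR-29a-3p, whose family targets collagen and other matrix mRNAs, was at 2343, 8461 and 11493 CPM at days 2, 4 and 8. The ratios were 3.61 (3.25 to 4.02) and 4.90 (4.44 to 5.43), and vehicle was at 3232, 2539 and 3403 CPM. Its hairpin lies at chr6:31062660-31062747 on the minus strand. The 3 other arms of this list had 0 to 35 reads a library under TGFβ and were not called at either day, and miR-29b-1-5p, from the same hairpin cluster but outside the list, had 12, 17 and 19 reads and was 4.49-fold lower at day 8. The list's median at day 8 was 2.05, or 1.05 with counts of 0 set to the 3-count limit.

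miR-23b and miR-27b lie together on chromosome 13, with the miR-27b hairpin at chr13:63300712-63300784 (plus strand). miR-27b-3p, a repressor of Pparg in fat cell differentiation, was at 2367, 5357 and 11275 CPM, with ratios of 2.26 (2.03 to 2.53) and 4.76 (4.31 to 5.27). miR-23b-3p was at 537, 1540 and 3125 CPM, a ratio of 5.82 (4.73 to 7.24) at day 8. Both were higher at day 8 in vehicle as well, at 10156 and 3432 CPM. miR-23a-3p, from chromosome 8, was at 1535, 4411 and 6100 CPM (3.97, 3.51 to 4.52). miR-24-3p, whose reads can come from a hairpin beside each of these 2 clusters, was at 15914, 12890 and 17209 CPM (1.08, 1.04 to 1.13). Of the 10 members of the miR-23/miR-27/miR-24 list, 4 were higher and 1 lower at day 8, beside 25% and 20.7% of all members, at a median of 0.75, and 2 were higher and 2 lower in vehicle.

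miR-140-3p, the more abundant arm of a cartilage miRNA within Wwp2 (chr8:107551244-107551313, plus strand), was at 6487, 21164 and 38867 CPM. Its ratios were 3.26 (3.06 to 3.48) and 5.99 (5.64 to 6.37). In vehicle the same miRNA went from 7112 to 15474 and 29432 CPM. miR-145a-5p, which with miR-143 promotes the smooth muscle phenotype, was at 555, 2124 and 4200 CPM, with ratios of 3.83 (3.09 to 4.79) and 7.57 (6.17 to 9.38). miR-143-3p, its abundant neighbour, was at 14226, 12678 and 15535 CPM, a day 8 ratio of 1.09 (1.05 to 1.14). Over the 4 arms of miR-143 and miR-145, 2 were higher at day 8, beside 25% of all members. The median was 1.68, or 1.10 with 0 at the 3-count limit. In vehicle 2 of the 4 arms were higher as well, at a median of 0.86.

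The miR-17 seed, AAAGUGC, pairs with mRNAs that hold back the cell cycle, such as Cdkn1a, and its miRNAs are encoded at more than 1 place. miR-17-5p and miR-20a-5p lie in Mir17hg (chr14:115043671-115043754 and chr14:115044157-115044263), and miR-93-5p and miR-106b-5p in Mcm7 (chr5:138165523-138165610 and chr5:138165737-138165818, minus strand). miR-93-5p was at 384, 1460 and 1958 CPM under TGFβ, a ratio of 5.10 (3.99 to 6.64) at day 8. miR-20a-5p was at 218, 464 and 542 CPM (2.48, 1.78 to 3.56), and miR-17-5p at 319, 570 and 726 CPM (2.28, 1.73 to 3.06). miR-106b-5p was at 53.1, 101 and 148 CPM on 9, 39 and 178 reads (2.78, 1.43 to 6.18). All 4 with this seed were thus higher at day 8, beside 25% of all members. So were 5 of the 7 members of the list, at a median of 1.30, against -0.63 in vehicle. Members of the same clusters with the seed AUUGCAC were not called at day 8. miR-92a-3p, which is also made from a hairpin on chromosome X, was at 32188, 43685 and 20419 CPM, 1.58-fold below day 2 at day 8, and miR-25-3p was higher but under the call, at 2444, 4154 and 4316 CPM (1.77). Of the 8 members of the list of miR-18, miR-19 and miR-25/miR-92, 0 were higher and 3 lower at day 8, beside 25% and 20.7% of all members, at a median of -0.24. In vehicle 6 of the 8 were lower, at a median of -1.73.

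The miR-182/miR-183/miR-96 transcript is best known from sensory organs. Among its 4 members, 3 were higher and 0 lower at day 8, beside 25% and 20.7% of all members. Their median was 1.50, beside -0.87 in vehicle. miR-182-5p (chr6:30165918-30165992, minus strand) was at 3577, 5780 and 9990 CPM, with ratios of 1.62 (1.48 to 1.77) and 2.79 (2.57 to 3.04). Vehicle ran the other way, at 2341, 1763 and 1223 CPM. miR-96-5p was at 112, 179 and 326 CPM (2.91, 1.84 to 4.88), and miR-183-5p, the most abundant at day 2, at 6859, 5894 and 8651 CPM (1.26, 1.19 to 1.34). The 3 members of miR-191/miR-425 were all higher at day 8, at a median of 1.47. miR-191-5p was at 3441, 6330 and 8869 CPM.

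Further families had higher calls at day 8. In the miR-378 list, from an intron of the metabolic coactivator gene Ppargc1b and related loci, 4 of 5 were higher at day 8, led by miR-378a-3p at 6174, 9900 and 14833 CPM. The p53-responsive miR-34 list had 3 of 5 higher, with miR-34c-5p at 1098, 1709 and 2320 CPM. Among 11 miR-30 arms 4 were higher and 0 lower, beside 25% and 20.7% of all members. miR-30c-5p was at 1417, 3633 and 5136 CPM, whereas the abundant miR-30d-5p was at 19060, 23714 and 24152 CPM. miR-22-3p was at 5313, 7012 and 11961 CPM, a ratio of 2.25 (2.10 to 2.41) at day 8. With total counts 3 of the calls counted here end: the log2 change was 0.95 for miR-34c-5p, 0.92 for miR-30e-5p and 0.94 for miR-378d.

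let-7 miRNAs repress growth-promoting mRNAs such as Hmga2 and those of the Ras genes, and all 9 members with the seed GAGGUAG were at or below 0.741 times their day 2 level at day 8. let-7i-5p (chr10:122985640-122985724, minus strand) was the most abundant at day 2, at 63337 CPM, and was at 28780 and 19360 CPM at days 4 and 8. Against day 2 it was 2.20-fold lower at day 4, a gap of 3.27-fold by day 8, and its vehicle levels were 54819, 34929 and 36524 CPM. let-7b-5p (chr15:85707319-85707403) was at 32158, 18771 and 14622 CPM, 2.20-fold lower at day 8. let-7f-5p was at 10802, 5368 and 4168 CPM, 2.59-fold lower. let-7g-5p (chr9:106178840-106178927) was at 4876, 2946 and 1924 CPM, 2.53-fold lower, and miR-98-5p (chrX:151913214-151913321) at 289, 117 and 58.9 CPM, 4.91-fold lower. The remaining 4 did not reach the call. let-7a-5p was at 13240, 8324 and 7710 CPM, let-7c-5p at 28209, 19248 and 15857, let-7d-5p at 3766, 3127 and 2792, and let-7e-5p at 8465, 6599 and 5602. The median over the seed was -1.14, and 5 of 9 were lower beside 20.7% of all members. With TMM factors from all miRNAs let-7b-5p came to -0.89, short of the call. Over all 17 arms of the let-7 and miR-98 list, the shares of the reads under TGFβ were 16.5%, 8.68% and 6.82% in order of day. In vehicle they were 17.7%, 15.2% and 16.0%. The 3p arm of let-7i went the other way, from 2 reads at day 2 to 32 and 223, a ratio of 15.7 (4.29 to 130) at day 8.

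**Figure D4:**
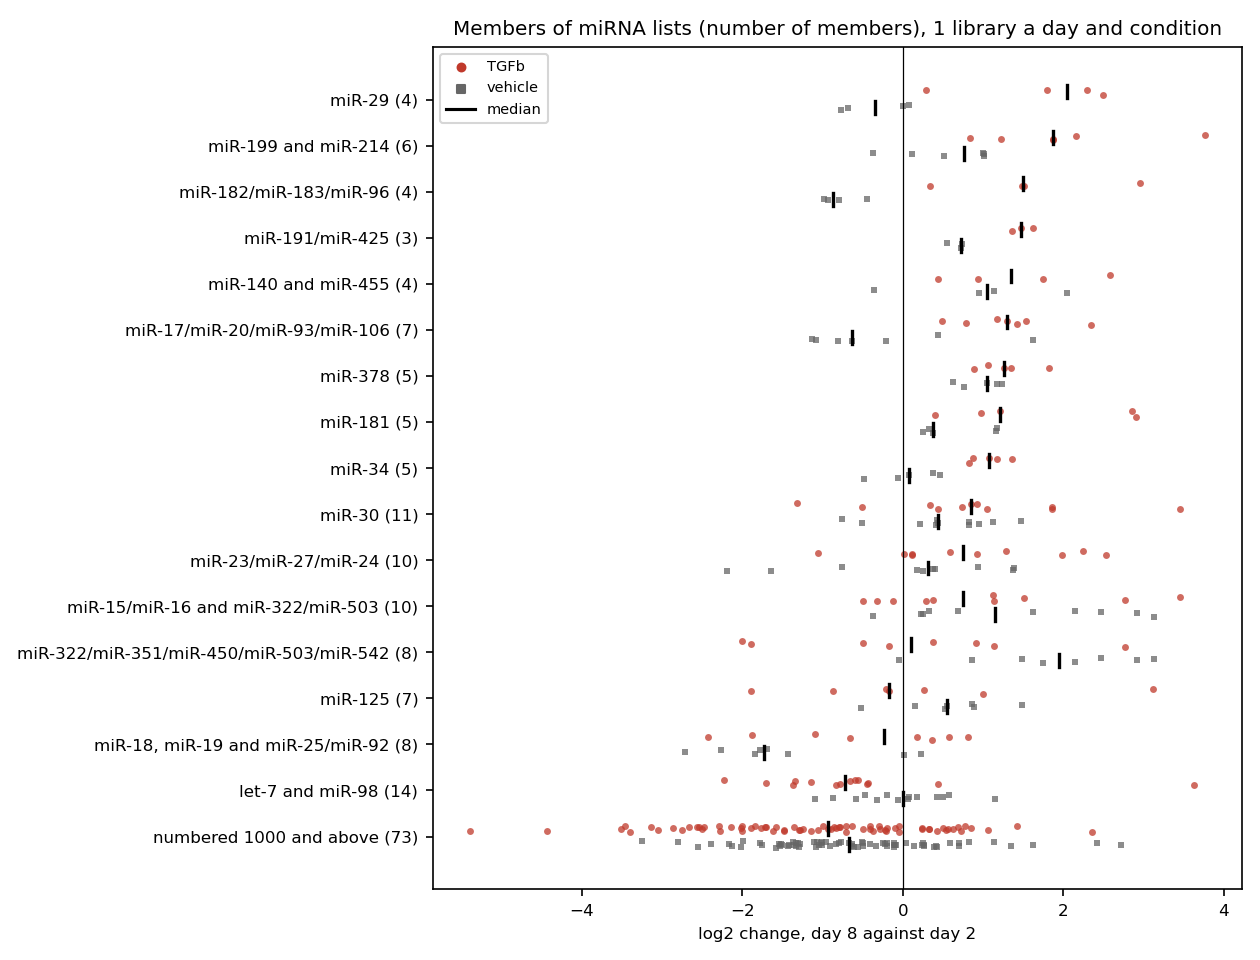
Log2 change at day 8 against day 2 (horizontal axis) of the members of 17 miRNA lists; red points are TGFβ, grey squares vehicle, black ticks medians, 1 library a day and condition, with the number of members in brackets. Medians under TGFβ run from 2.05 for miR-29 to -0.93 for those numbered 1000 and above, and let-7 lies at -0.72 against 0.00 in vehicle.

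Of the 73 members with miRBase numbers of 1000 and above, 2 were higher and 32 lower at day 8, beside 25% and 20.7% of all members, at a median of -0.93. These 73 had 25 lower calls in vehicle. All 453 listed miRNAs with such numbers took 11.8%, 12.0% and 6.52% of the reads under TGFβ and 14.2%, 8.14% and 6.54% in vehicle. miR-6243, the most abundant of them, was at 50982, 91408 and 49461 CPM. miR-5099 was at 39478, 22598 and 8931 CPM, 4.42-fold lower at day 8, and vehicle was at 35169, 11579 and 6014 CPM. miR-6238 (chr7:53891761-53891889, minus strand) had 83, 22 and 10 reads, or 490, 57.0 and 8.30 CPM, 59.0-fold lower at day 8 (ratio 0.0169, 0.00784 to 0.0327). miR-1249-3p was at 2497, 1621 and 367 CPM, 6.80-fold lower at day 8, with most of that drop after day 4. Among lower numbers, miR-690, in an intron of Fgf12 (chr16:28599935-28600043, minus strand), was at 1753, 586 and 157 CPM, 11.2-fold lower. miR-92b-3p was at 1470, 931 and 396 CPM, 3.71-fold lower, and miR-129-5p at 25884, 14184 and 9082 CPM, 2.85-fold lower. Apart from miR-6243, each of these was highest at day 2 and lowest at day 8 under TGFβ.

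The 10 largest log2 changes upward at day 8 came from miRNAs with 0 to 13 reads at day 2. miR-143-5p had 0, 31 and 72 reads, at least 4.54-fold higher at day 4 and 3.38-fold at day 8 when day 2 is set to 3 counts. miR-130a-3p, which shares its seed with miR-301, had 0, 24 and 90 reads, at least 3.51-fold and 4.22-fold higher. miR-497-5p, a member of the miR-15/miR-16 family of cell cycle repressors, had 0, 15 and 75 reads (at least 2.20-fold and 3.52-fold), and miR-339-3p 0, 12 and 52. At this depth the day 2 level of these 4 is known only to be at or below 17.7 CPM. In vehicle they had 1 to 4 reads at day 2. miR-350-3p had 1, 38 and 138 reads, with a wide ratio of 19.4 (3.43 to 772) at day 8, and miR-30b-5p had 3, 54 and 276 (12.9, 4.38 to 63.1).

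From day 4 to day 8, 14 of the 372 miRNAs (3.76%) were called higher and 42 (11.3%) lower, at a median log2 change of 0.05. The share of higher calls was 25.0%, and 43.6% with TMM factors taken from all miRNAs, where 24 were higher. The 2 miRNAs of the miR-146 family, which restrain inflammatory signalling through Traf6 and Irak1, were among the higher. miR-146b-5p had 93, 85 and 812 reads at days 2, 4 and 8, or 549, 220 and 674 CPM: it was 2.49-fold lower at day 4 and then 3.06 times (2.44 to 3.87) the day 4 level at day 8. miR-146a-5p was at 218, 264 and 650 CPM, a ratio of 2.46 (2.00 to 3.05) in the same step. miR-500-3p, from the chromosome X cluster of miR-188, miR-362, miR-500, miR-501 and miR-532, had 1, 7 and 83 reads, a ratio of 3.80 (1.76 to 9.73). miR-27b-3p and miR-23b-3p were at 2.10 (2.01 to 2.21) and 2.03 (1.86 to 2.22) times their day 4 levels. On the lower side miR-6238 was 6.87-fold lower, miR-1249-3p 4.42-fold, miR-877-3p 3.87-fold and miR-690 3.73-fold. miR-296-5p was highest at day 4, at 88.5, 267 and 65.6 CPM, 4.07-fold lower in this step. Of the 42 lower calls 23 (54.8%) had numbers of 1000 and above, beside 15.5% of the miRNAs called neither way in this step.

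A straight line on log2 of the day was fitted in each treatment over the 6 libraries, and edgeR's quasi-likelihood test asked whether the slope under TGFβ exceeded the departures from the line. Days are not replicates, and these departures give 2 residual degrees of freedom. Of 313 miRNAs tested, 20 (6.39%) rose and 28 (8.95%) fell with Benjamini-Hochberg adjustment, and 121 had an unadjusted p under 0.05. A slope is the log2 change per doubling of the day. In edgeR the risers with the smallest adjusted p (0.0293) were miR-27b-3p (slope 1.13 ± 0.15, SE), miR-140-3p (1.29 ± 0.18), miR-23b-3p (1.26 ± 0.19), miR-99a-5p (0.95 ± 0.15) and miR-145a-5p (1.45 ± 0.23). miR-182-5p, miR-199a-3p, miR-199b-3p, miR-23a-3p and miR-199b-5p also rose, with slopes from 0.74 to 1.79 and edgeR adjusted p from 0.0388 to 0.0423. So did miR-199a-5p (1.08 ± 0.24), miR-29a-3p (1.14 ± 0.27) and miR-181a-5p (1.45 ± 0.34; edgeR adjusted p = 0.0474). miR-6238 fell with a slope of -2.94 ± 0.30, miR-6538 with -2.66 ± 0.36, miR-709 with -2.14 ± 0.30, miR-690 with -1.74 ± 0.23 and miR-5099 with -1.07 ± 0.17 (each edgeR adjusted p = 0.0293). let-7i-5p (-0.85 ± 0.16), miR-98-5p (-1.14 ± 0.24), let-7b-5p (-0.57 ± 0.14) and let-7f-5p (-0.69 ± 0.17) fell, and let-7i-3p rose (1.68 ± 0.40), with edgeR adjusted p from 0.0388 to 0.0491.

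Over all 313 tested, 6.39% rose and 8.95% fell, and the counts by list stand beside these shares. In this test 4 of the 14 let-7 and miR-98 arms fell and 1 rose. Of 6 miR-199 and miR-214 arms 4 rose (3 of 5 with the shared 3p sequence counted once), as did 3 of 10 miR-23/miR-27/miR-24 arms. Among the 56 tested miRNAs with numbers of 1000 and above, 0 rose and 15 fell. None of the 7 tested arms of the miR-17 list passed, and miR-93-5p was nearest, with a slope of 1.15 ± 0.31 and an edgeR adjusted p of 0.0595. The calls rest on single libraries. With the day 2 TGFβ library left out, 0 rose and 0 fell, likewise without the day 8 TGFβ library, and without the day 8 vehicle library 0 rose and 1 fell. With the day on a linear scale 0 passed either way, although 81 had an unadjusted p under 0.05.

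The vehicle colonies had a course of their own. There, 51 miRNAs (13.7%) were called higher and 48 (12.9%) lower at day 8 against day 2, beside 93 and 77 under TGFβ. These 2 comparisons share no library. The members were chosen on the TGFβ libraries, and the vehicle libraries held fewer reads at each day, which widens their intervals. Without the interval, 69 were at least 2-fold higher and 69 lower in vehicle, beside 111 and 84 under TGFβ. At day 4 against day 2 vehicle had 26 (6.99%) higher and 27 (7.26%) lower calls, and from day 4 to day 8 23 (6.18%) higher and 17 (4.57%) lower, the reverse of the balance seen under TGFβ in that step. Across the 372 miRNAs the 2 courses at day 8 had a Pearson r of 0.45 and a Spearman rho of 0.46, a description across miRNAs that share depth and scaling. At day 4 the values were 0.15 and 0.17. No miRNA was called in opposite directions at day 8. The difference between the slopes of TGFβ and vehicle passed for 0 of 313 miRNAs in edgeR's test, 43 had an unadjusted p under 0.05, and DESeq2's Wald test on the same design called 6 positive and 1 negative. A difference between the courses is therefore given as a ratio of the 2 day 8 to day 2 ratios, with a counting interval and no test.

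Several miRNAs were higher at day 8 in both courses. miR-140-3p was 1.45 times (1.32 to 1.59) as far above its day 2 level under TGFβ as in vehicle, miR-30c-5p 1.30 times (1.09 to 1.56), and miR-378a-3p 1.06 times (0.964 to 1.16), an interval that holds 1. miR-99a-5p was higher by less under TGFβ: it was at 2143, 4110 and 8024 CPM there and at 1822, 4524 and 15202 CPM in vehicle, a ratio of ratios of 0.449 (0.379 to 0.532). Other changes were larger under TGFβ beyond counting error. miR-93-5p had a ratio of ratios of 5.90 (4.13 to 8.43), miR-182-5p 5.35 (4.54 to 6.30), miR-29a-3p 4.66 (4.01 to 5.40), miR-199a-5p 4.13 (3.81 to 4.47) and miR-181a-5p 3.35 (3.06 to 3.66). For let-7i-5p the value was 0.459 (0.442 to 0.476) and for let-7b-5p 0.430 (0.412 to 0.450). miR-155-5p, an inflammation-linked miRNA, was at 472, 653 and 781 CPM under TGFβ and at 551, 174 and 125 CPM in vehicle, a ratio of ratios of 7.27 (4.78 to 11.1).

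**Figure D5:**
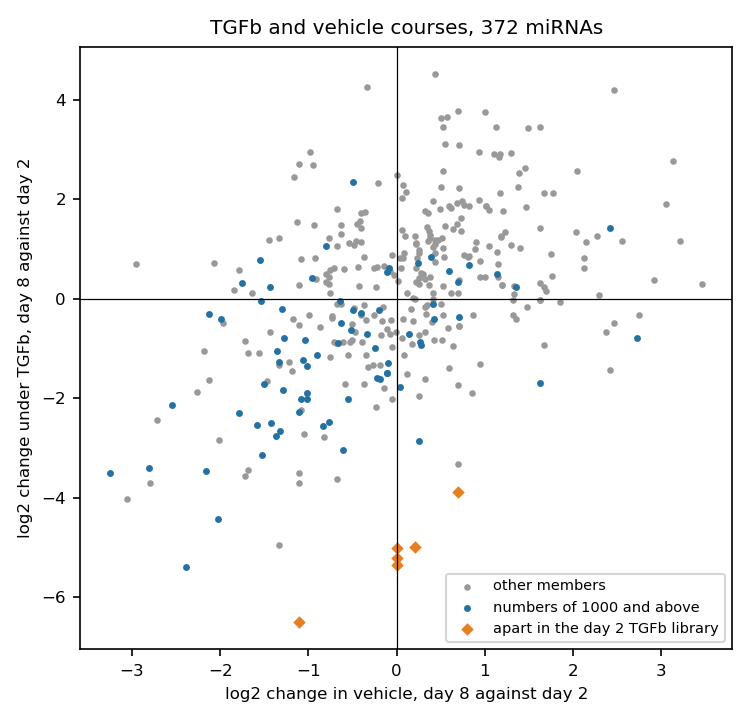
Log2 change at day 8 against day 2 under TGFβ (vertical axis) and in vehicle (horizontal axis) for 372 miRNAs, each point 1 miRNA and each condition and day 1 library. Blue points have numbers of 1000 and above, orange diamonds are the 6 miRNAs that stood apart in the day 2 TGFβ library and lie between -3.89 and -6.50 on the vertical axis.

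The X-linked miR-322/miR-351/miR-450/miR-503/miR-542 list, known for promoting exit from the cell cycle in muscle, was higher at day 8 in vehicle more than under TGFβ. Of its 8 members, 0 were higher and 2 lower at day 8 under TGFβ, at a median of 0.10 (0.00045 with counts of 0 at the 3-count limit, and -0.019 with total counts), while 5 were higher in vehicle, at a median of 1.95. miR-322-3p was at 70.8, 85.6 and 93.0 CPM under TGFβ and at 72.9, 181 and 598 CPM in vehicle, a ratio of ratios of 0.160 (0.0656 to 0.390). miR-351-5p was at 1287, 1268 and 1144 CPM under TGFβ and at 1369, 2509 and 3834 CPM in vehicle (0.317, 0.257 to 0.393). The rodent-specific repeat cluster in Sfmbt2 had 30 members, 6 higher and 3 lower at day 8 under TGFβ and 10 higher and 1 lower in vehicle, at medians of 0.26 and 1.09. Over all members the shares were 25% and 20.7% under TGFβ and 13.7% and 12.9% in vehicle. Its miRNAs, among them miR-669, miR-467 and miR-466, are near copies of one another, so counts of single members are uncertain.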

How the data were processed

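The deposited counts are unnormalized whole numbers of reads for each mature miRNA in 6 libraries. RPM values, deposited in another table of 514 rows (each a mature miRNA with its precursor), served here as an alternative only. The submitters' processing notes name build mm10 and edgeR 3.9 without their roles. How reads were aligned and counted is not given in the sources used here. Per the labels' protocols, RNA of colonies recovered from agarose was prepared with a TruSeq RNA kit, and no separate small RNA kit is named. The mRNA tables were not used here.

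TMM factors (0.839 to 1.17) were computed in R 4.3.3 (edgeR 4.0.16, limma 3.58.1) from the miRNAs past edgeR's expression filter, and applied to library totals of 108716 to 1387785 reads. Ratios, intervals and list counts were computed in Python 3.11.15 with SciPy 1.17.1, with a prior count of 2 on the log2 scale. Slopes were tested with edgeR's quasi-likelihood test over 313 miRNAs (biological coefficient of variation 26.4%, prior degrees of freedom 3.53), with Benjamini-Hochberg adjustment at 0.05. On simulated data with 60 changed miRNAs of 313, the slope test recovered 2% of slopes of 0.5, 49.8% of slopes of 1 and 97% of slopes of 2, with up to 2.1 false calls a run. The simulated courses were exact lines under TGFβ and flat in vehicle. They had the same coefficient of variation for every miRNA, taken from this fit, and no effect shared by a whole library. The simulation therefore does not give the number of false calls in the real data.

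Named were the 10 most abundant, the 10 largest changes each way at day 4 and day 8 against day 2 among those called, the 5 each way for day 8 against day 4, up to 10 each way by p in the slope test, and up to 6 members of each of 37 lists by mean CPM. Other miRNAs were named after their values were seen. The members and lists were chosen with earlier results of these data known. Reads of 39 members can come from several precursors, and where copies are near identical single miRNAs are uncertain. miR-199a-3p and miR-199b-3p have the same sequence, as do let-7a-1-3p and let-7c-2-3p. Alternatives were total counts, DESeq2 1.42.0 size factors and Wald test, other TMM settings, prior counts of 0.5 and 5, a minimum of 50 CPM, no filter, the RPM table, the day on a linear scale and leaving out each library.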

Additional observations from a re-analysis of the deposited data

Results flagged for a closer look

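miR-146b-5p was called in opposite directions in the 2 courses at day 4 against day 2: its log2 change was -1.30 under TGFβ, on 93 and 85 reads, while in vehicle it went from 535 to 2280 CPM. miR-5117-5p likewise had a log2 change of 1.12 under TGFβ, from 956 to 2080 CPM (0.94, short of the call, with total counts), beside 1693 and 798 CPM in vehicle. miR-466c-5p had a log2 change of 1.00 under TGFβ at day 8 against day 4, from 28.5 to 60.6 CPM, beside 70.2 and 30.8 CPM in vehicle, and belongs to a family of near copies. In each case the difference between the treatments was not tested at these days, since each has 1 library.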

How the results depend on the processing

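No paired analysis was possible because each condition and day has 1 miRNA library, so groups share no replicate pairs. Under 4 other scalings, 159 called log2 changes of named miRNAs gave 634 values, of which 0 changed sign. A call needs a log2 change of at least 1, and these scalings moved changes by medians of -0.18 to 0.23. A change of sign among called values could thus hardly arise, and its absence is no check of the calls. Of 682 values of the 175 named changes that were not called, 39 changed sign, in 22 changes of at most 0.20 in size. Total counts ended 8 of 62 named calls at day 4 and 10 of 97 at day 8, DESeq2 size factors 9 and 7, and TMM factors from all miRNAs 1 and 4. Of 258 alternative values of 20 named slopes, 0 changed sign and 82 no longer passed. The minimum of 50 CPM, which leaves 244 miRNAs, gave 25 lower calls at day 4 and 48 at day 8 against day 2, and 6 higher and 26 lower at day 8 against day 4. TMM factors from all miRNAs, chosen after seeing the data, gave 24 higher calls at day 8 against day 4, and moved single log2 changes at day 8 against day 2 by a median of 0.23. The like median was -0.17 at day 4 and -0.12 at day 8 with total counts, and -0.18 and -0.09 with DESeq2 size factors.

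In the slope test under TGFβ, 34 miRNAs rose with total counts, 34 with DESeq2 size factors, 48 with TMM factors from all miRNAs and 54 with the 3 TGFβ libraries alone, where 48 fell. Without a filter 49 rose and 52 fell, and on a linear day scale 0 and 0. Leaving out 1 library gave 0 to 55 rising and 0 to 54 falling. The difference of slopes, 0 and 0 by edgeR, was 6 positive and 1 negative by DESeq2, 5 and 4 without a filter, and 0 to 6 positive and 0 to 9 negative on leaving out 1 library, with the most, 6 and 9, without the day 4 vehicle library. The 3 TGFβ libraries alone leave 1 residual degree of freedom.

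Of 282 list medians under another scaling or minimum 16 changed sign, 7 of them in lists with a called member. At a minimum of 50 CPM, miR-143 and miR-145 at day 4 came to -0.17, and miR-10 and miR-196 to -2.39 at day 4 and -1.95 at day 8. With TMM factors from all miRNAs, miR-18, miR-19 and miR-25/miR-92 came to 0.00278 and miR-125 to 0.073 at day 8. With total counts, miR-99/miR-100 came to -0.015 and miR-322/miR-351/miR-450/miR-503/miR-542 to -0.019 at day 8. The 50 CPM minimum left 3 of 4 members of miR-143 and miR-145 and 2 of 3 of miR-10 and miR-196. In the lists that changed sign by scaling, the main medians were -0.24, -0.17, 0.11 and 0.10, in the order given. Single changes at day 8 moved by a median of 0.23 with TMM factors from all miRNAs and -0.12 with total counts. Beyond these values the cause was not tested. As a separate limit, depth was least in the day 2 library, where 1 read is 5.90 CPM.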

Other observations

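For 94 hairpins both arms were members. At day 8 against day 2 under TGFβ both arms were called for 18 of them: 10 had both arms higher, 5 both lower, and 3 had arms in opposite directions. The 3 were let-7i, miR-193b and miR-23a. Over all members 25% were higher and 20.7% lower, and whether arms went together more often than these shares give was not tested. The pairs with both arms higher include miR-199a and miR-199b, whose 3p arms have the same sequence. For miR-193b the 3p arm was at 909, 2562 and 3449 CPM at days 2, 4 and 8, a log2 change of 1.92, and the 5p arm at 195, 117 and 56.5 CPM, a log2 change of -1.73. For miR-23a the log2 changes were 1.99 for the 3p arm and -1.05 for the 5p arm.

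Hairpins within 10 kb on 1 strand were read as clusters, counting members with a RefSeq sequence. The shares over all members were 25% higher and 20.7% lower. In the chromosome X cluster of miR-188, miR-362, miR-500, miR-501 and miR-532 (chrX:7237683-7248497) 4 of 6 members were higher and 0 lower at day 8 under TGFβ, at a median log2 change of 2.14, and miR-532-5p, which is not in that count, was at 0.61. In the miR-17 to miR-92a cluster (chr14:115043671-115044506) 2 of 8 were higher, at a median of 0.69, and in the Mcm7 cluster (chr5:138165321-138165818) 3 of 6 were higher and 1 lower, at a median of 1.12.

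Base composition differed between the calls at day 8 but hardly at day 4. At day 4 against day 2 the median GC content was 47.8% for 49 higher and 46.5% for 30 lower calls with a sequence. With sequences at hand for 77 of 93 higher and 62 of 77 lower calls at day 8, the median GC content was 47.8% and 57.1%, and 50% for miRNAs called neither way. At day 8 against day 4 the 32 lower calls with a sequence had a median of 62.8%, and 9 higher calls 47.6%. The day 8 lower calls also held more miRNAs with numbers of 1000 and above, 41.6% against 2.15% of the higher calls. Among miRNAs called neither way the share was 19.3%, and 73 of all 372 members have such numbers. The part of base composition in the changes was not tested.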
